A study of Mus musculus with 15 samples.

Results

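The complement genes of the kidney were described across 15 mouse kidneys, of which 5 were controls (C), 5 were CKD model kidneys (M) and 5 were model kidneys treated with AA (AA). The 9 genes were C1qa, C1qb, C1qc, C3, C4b, Cfb, Cfi, C3ar1 and C5ar1, taken by symbol from the 54532 genes of the deposited table, and all 9 were found and tested in each comparison. All mice were male C57BL/6, 8 weeks old at the start, and were killed after 8 weeks. The C mice ate normal chow. The M mice ate chow with 0.25% adenine for 4 weeks, which injures the tubules, and then normal chow to week 8. The AA mice ate as the M mice did and were also gavaged every day for 8 weeks with 30 mg/kg of asiatic acid (AA), a plant triterpenoid, while the C and M mice were gavaged with the vehicle, dilute DMSO in saline. Poly-A RNA of 1 kidney per mouse was sequenced, and levels are given in FPKM, which scales a gene's fragments by gene length and library total.

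The recovered number of fragments per library was 13646953 to 28883909, of which 2077628 to 13576524 lay outside the mitochondrial genome (medians of 8894333 for C, 2770067 for M and 3278782 for AA). The mitochondrial share of fragments was 53 to 62.5% for C, 64 to 86.8% for M and 69.2 to 87.2% for AA kidneys. M mice 1 to 3 stood apart, with 10065 to 12219 genes above 0, against 23031 and 25449 in M mice 4 and 5 and 18688 to 25241 in the other 2 groups. Results that rest on the M group are therefore also given with M mice 4 and 5 alone and with M mice 1 to 3 alone. Kidney markers were present: Slc34a1, the phosphate transporter of the proximal tubule, was at 71 to 905 FPKM in C kidneys and 0.184 to 16.9 in the M and AA groups, and Umod, of the loop of Henle, at 6.3 to 66.7 FPKM over all libraries. Alb, which marks liver cells, was at most 2.56 FPKM in any library.

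Complement is a chain of blood proteins that tags damaged cells and microbes. C1q, built from the products of C1qa, C1qb and C1qc, starts the classical pathway by binding antibodies or cell debris. C3 is the protein on which all pathways meet, C4b makes a part of the classical convertase that cleaves it, and Cfb a part of the alternative convertase. Cfi encodes factor I, the protease that inactivates C3b and C4b. C3ar1 and C5ar1 encode the receptors for the small fragments C3a and C5a on immune and other cells. The liver makes most complement of the blood, while macrophages are a main source of C1q and injured tubule cells can make C3.

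The C1q genes lie side by side on the minus strand of chromosome 4 of GRCm38, with C1qb at 136880129 to 136886187, C1qc at 136889804 to 136893065 and C1qa at 136895917 to 136898803, and gaps of 3616 and 2851 bases between them. C3 (57203970 to 57228136), C4b (34728380 to 34743882) and Cfb (34856374 to 34862518) are on the minus strand of chromosome 17. Cfi is on the plus strand of chromosome 3 (129835884 to 129875332), C3ar1 on the minus strand of chromosome 6 (122847138 to 122856161) and C5ar1 on the minus strand of chromosome 7 (16246743 to 16259540). All 9 are protein-coding. No 31-base word of C1qa, C1qb, C1qc, C3 or Cfi occurred in another gene's transcripts. C4b shared 48.3% of its words with other genes, mainly its near copy C4a, and 79.5% of the exon bases of Cfb overlap Gm20547 on the same strand, so the values of C4b and Cfb are uncertain.

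The 250 bases before the RefSeq start were held for 5 of the 9 genes: C1qb, C1qc, C3, C3ar1 and C5ar1. Those of C1qb, C1qc and C3 are shown, the first pair because these genes were called in M vs. C and C3 because it is the protein on which the pathways meet. Capitals mark a match to GAGGAA, the core of PU.1 sites, on either strand in C1qb and C1qc, and to TTGCNNAAT, a C/EBP motif, in C3. They are the minus strand of GRCm38.p6, read 5′ to 3′, at chr4:136886201-136886450 for C1qb, chr4:136893066-136893164 for C1qc and chr17:57228137-57228386 for C3. For C1qc, the 151 bases of the window that fall inside the annotated gene are left out.
C1qb: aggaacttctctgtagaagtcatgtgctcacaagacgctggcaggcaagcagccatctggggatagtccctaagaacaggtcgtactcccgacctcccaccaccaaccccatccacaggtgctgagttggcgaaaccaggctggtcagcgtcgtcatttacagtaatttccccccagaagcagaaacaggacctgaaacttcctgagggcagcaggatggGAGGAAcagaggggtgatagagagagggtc
C1qc: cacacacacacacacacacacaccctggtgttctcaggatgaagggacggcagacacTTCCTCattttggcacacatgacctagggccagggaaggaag
C3: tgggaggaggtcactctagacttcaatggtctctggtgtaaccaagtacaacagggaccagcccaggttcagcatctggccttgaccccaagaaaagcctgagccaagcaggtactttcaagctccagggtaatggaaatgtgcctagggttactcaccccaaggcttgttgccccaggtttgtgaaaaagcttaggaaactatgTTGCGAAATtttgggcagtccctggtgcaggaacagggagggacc

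The match in C1qb was 30 to 25 bases before the start, that in C1qc 193 to 188 bases before it and that in C3 45 to 37 bases before it. On both strands of the 250 bases, GAGGAA was found in 2 of the 5 promoters of the complement genes and in 23.3% of all 32851 promoters. TTGCNNAAT was found in 1 of 5 and in 2.11% of all. Of the other motifs searched, GGNNTTTCC (NF-kB) was found in 1 of 5, C3ar1, and in 4.93% of all, GAAANNGAA (interferon-stimulated element) in 1 of 5, C5ar1, and in 7.13% of all, and TTCNNNGAA (gamma-activated site) in 0 of 5 and in 7.02% of all. The match in C5ar1 lay 66 to 58 bases before the start, within the 202 bases of its window that fall inside the annotated gene. Any match here is a description of letters, and binding was not measured.

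**Figure D1:**
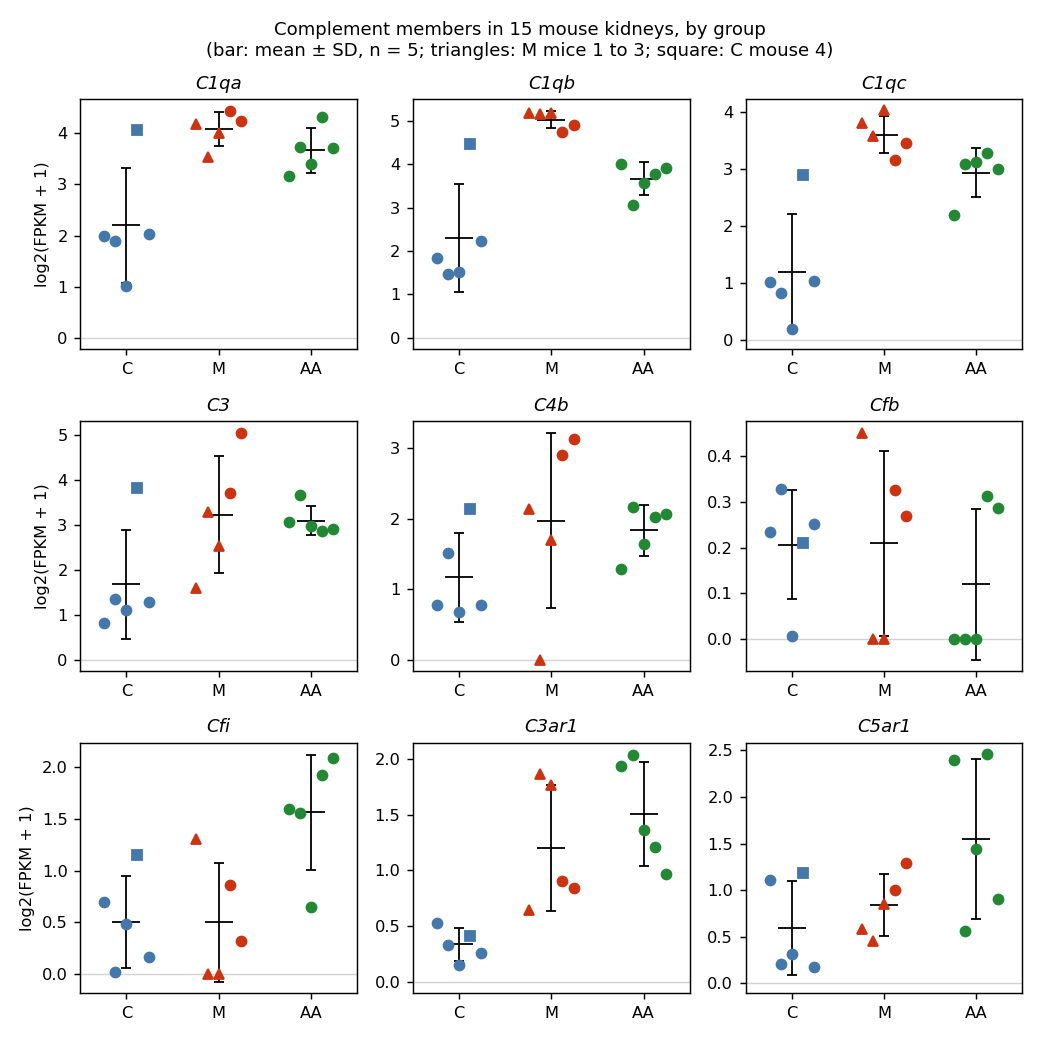
Level of each of the 9 complement genes as log2(FPKM + 1) in every kidney of the C, M and AA groups (1 point per mouse, horizontal line and bar for the mean ± SD of log2 values, n = 5). M mice 1 to 3 are triangles and C mouse 4 is a square. On this scale of deposited FPKM, the M kidneys lie above all C kidneys for C1qb, C1qc and C3ar1, and the AA kidneys lie below all M kidneys for C1qb.

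Of the complement genes listed at the start, C1qb and C1qc were called higher in the CKD model, and C1qb was called lower with AA. In M vs. C, both calls held with TPM and in 5 of 10 fits that left out 1 library. Both were lost with M mice 4 and 5 alone. In AA vs. M, the call of C1qb held in all 10 such fits. It was lost with TPM and with M mice 4 and 5 alone. Of the other complement genes, Itgb2 was also called higher in M vs. C. C1qb rose 6.62-fold in M kidneys against the C group and was 2.58-fold lower in AA kidneys than in M kidneys, on the scale of FPKM + 1. C1qc rose 5.35-fold in M kidneys, and C1qa differed by 1.88 on the log2 scale, a difference that missed the threshold here and passed it under some of the alternatives below. In the AA group against the C group, all 3 C1q genes, C3, Cfi and C3ar1 were called higher, and none of these calls remained with TPM.

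C1qb encodes the B chain of C1q. The FPKM values were 2.58, 1.78, 1.88, 21.2 and 3.68 in C mice 1 to 5. M mice 1 to 5 had 35.6, 34.7, 35.1, 25.8 and 28.9 FPKM. AA mice 1 to 5 had 15, 7.34, 11, 12.8 and 14.1 FPKM. On this FPKM scale the M kidneys lay above all others, and C mouse 4, far above the other C kidneys, lay above all AA kidneys. The numbers of fragments behind these values were 78 to 782 in C kidneys, 394 to 981 in M kidneys and 72 to 287 in AA kidneys. The means were 6.23 ± 8.42 FPKM (SD, n = 5) for C, 32 ± 4.43 for M and 12.1 ± 3.04 for AA, and 2.48 ± 0.874 for C without mouse 4 (n = 4).

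Differences were tested with limma on log2(FPKM + 1). A gene was called where its p, adjusted over all genes tested, did not exceed 0.05 and its level changed by 1 or more on the log2 scale. Of the 9 complement genes, 2 were called in M vs. C, both higher, where 1.38% of all 21153 genes tested were called and 0.269% were called higher. For C1qb the change was 2.73 on the log2 scale (standard error, SE, 0.50, limma adjusted p = 0.0247), 2.51 against M mice 4 and 5 alone, where adjusted p was 0.207, and 2.87 with M mice 1 to 3 alone. The call was lost when C mouse 2 or 5 or M mouse 1, 2 or 3 was left out, with adjusted p from 0.0588 to 0.0793 and log2 fold changes of 2.52 to 2.71. It was also lost when genes above 0 in any library were tested (adjusted p = 0.0716).

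In AA vs. M, C1qb was the 1 of 9 complement genes that was called, where 12.8% of all 19798 genes tested were called and 1.07% were called lower. Its log2 fold change was −1.36 (SE 0.30, limma adjusted p = 0.00837), and it was called in all 10 fits that left out 1 library. It was −1.15 against M mice 4 and 5 alone (adjusted p = 0.0586) and −1.51 against M mice 1 to 3 alone. With libraries scaled to the same total (TPM) it was −1.45, with adjusted p = 0.0912, so the call was lost. The ranges of the AA and M groups did not overlap, as in 13.2% of all genes tested, with the AA range lower in 1.31%.

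C1qc encodes the C chain. Its FPKM was 1.02, 0.76, 0.133, 6.46 and 1.05 in C mice 1 to 5, 12.9, 11, 15.3, 7.89 and 10 in the M mice, and 3.58, 7.46, 7.66, 8.78 and 7.04 in the AA mice. On the deposited FPKM scale, all M kidneys lay above all C kidneys, while the M and AA ranges overlapped through M mouse 4 and AA mouse 4. The FPKM of all genes summed to 1171206 in M mouse 1 and 444566 in C mouse 4, so the place of the M kidneys above C mouse 4 depends on the scaling. M vs. C gave a log2 fold change of 2.42 (SE 0.44, limma adjusted p = 0.0233), 2.12 against M mice 4 and 5 alone, where adjusted p was 0.203, and 2.62 with M mice 1 to 3 alone. As for C1qb, the call was lost without C mouse 2 or 5 or M mouse 1, 2 or 3 (adjusted p 0.0567 to 0.0793, log2 fold changes 2.31 to 2.42), and with genes above 0 in any library (adjusted p = 0.0678). AA vs. M gave −0.67 (SE 0.31, limma adjusted p = 0.159), which did not pass.

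C1qa encodes the A chain. Its FPKM was 2.99, 2.7, 1.03, 15.8 and 3.1 in the C mice, 17.1, 10.7, 15.2, 20.7 and 18 in the M mice, and 7.98, 12.3, 9.55, 19 and 12.1 in the AA mice. C mouse 4 lay within the M range, so the C and M groups overlapped through 1 kidney. M vs. C gave a log2 fold change of 1.88 (SE 0.47, limma adjusted p = 0.0732), which missed the threshold, and it was 2.35 without C mouse 4 (adjusted p = 0.0148), where it passed. It also passed with libraries centred on their median (2.24, adjusted p = 0.0237), with quantile normalization (2.12, adjusted p = 0.0367), with voom on the recovered fragments (2.66, adjusted p = 0.0403), with all 15 libraries in 1 fit (adjusted p = 0.0189), with genes of a mean FPKM of at least 1 (adjusted p = 0.0469) and with M mice 1 to 3 alone (1.71, adjusted p = 0.0422). Of these alternatives, voom used the library totals implied by FPKM, so it kept the deposited scaling. C1qa did not pass with TPM (1.13, adjusted p = 0.188) or with M mice 4 and 5 alone (2.14, adjusted p = 0.237). AA vs. M gave −0.42 (SE 0.32, limma adjusted p = 0.395), with a 95% interval of −1.10 to 0.26.

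The 3 C1q genes together summed to 3.04 to 43.5 FPKM in C kidneys, 54.4 to 65.7 in M kidneys and 26.5 to 40.6 in AA kidneys. On the deposited FPKM scale the M kidneys thus lay close to each other and above all 10 others. The FPKM of all genes summed to 1171206 in M mouse 1, 412137 in M mouse 5 and 444566 in C mouse 4. The closeness of the M kidneys and their place above C mouse 4 therefore depend on the scaling. The C sums were 6.59, 5.25, 3.04, 43.5 and 7.84 in mice 1 to 5, so that mouse 4 held the whole upper part of the C range. The ratio of C1qb to C1qa FPKM was 1.18 ± 0.454 (SD, n = 5) in C kidneys, 2.1 ± 0.764 in M kidneys and 1.09 ± 0.511 in AA kidneys, with a range of 1.25 to 3.25 in M kidneys and 0.599 to 1.88 in AA kidneys, which overlapped. The ratio of C1qc to C1qa was 0.3 ± 0.106, 0.748 ± 0.283 and 0.581 ± 0.143 in the same order, and the C range (0.129 to 0.41) and the AA range (0.448 to 0.802) did not overlap. These ratios are given as a description and were not tested.

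**Figure D2:**
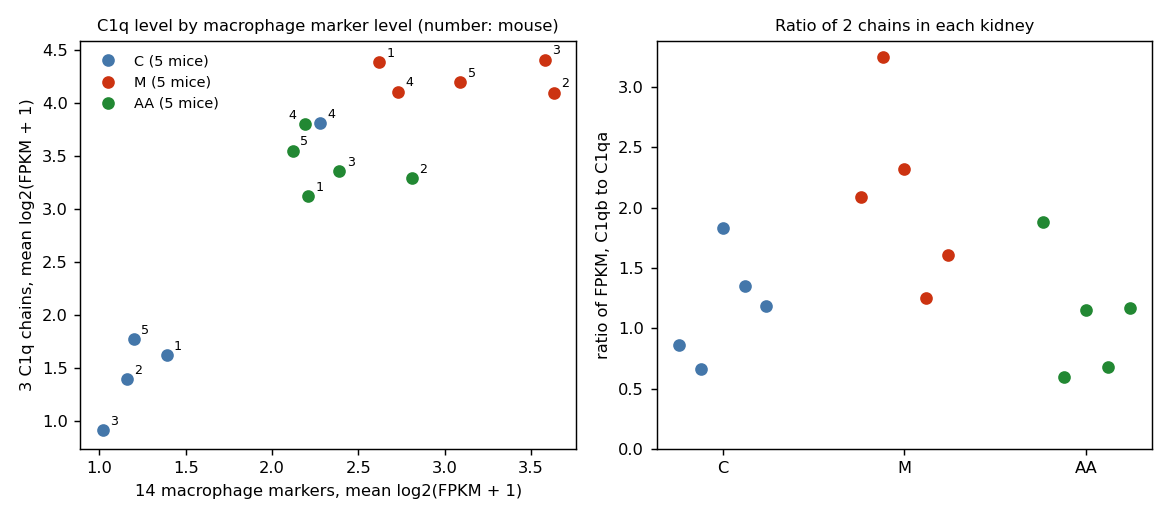
Left, mean log2(FPKM + 1) of the 3 C1q genes against that of 14 macrophage markers, 1 point per kidney, numbered by mouse and coloured by group. Right, the ratio of C1qb to C1qa FPKM in each kidney, by group. C mice 1, 2, 3 and 5 lie at the lower left, the M kidneys at the upper right, and C mouse 4 lies among the AA kidneys.

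Macrophage marker levels differed between the same groups. The 14 markers summed to 21.3 to 104.5 FPKM in C kidneys, 150.4 to 485 in M kidneys and 106 to 193 in AA kidneys, and none was at 0 in all libraries of a group. In M vs. C, 6 of 14 were called higher (Lyz2, Ctss, Fcgr1, Aif1, Fcer1g and Ms4a7). In AA vs. M, 1 was called lower (Fcer1g), and in AA vs. C, 3 were higher (Lyz2, Ctss and Tyrobp) and 1 lower (Csf1r). By the sign of the log2 fold change, 13 of 14 were higher and 1, Csf1r, lower in M vs. C, all 14 with an unadjusted p under 0.05, and the median was 1.54. In AA vs. M, 0 were higher and 14 lower (4 at an unadjusted p under 0.05, median −0.73), and in AA vs. C 13 were higher and 1 lower (median 0.70). Over all genes tested, the unadjusted limma p was under 0.05 for 3493 of 21153 in M vs. C and 6360 of 19798 in AA vs. M. Of the defining markers, Adgre1 (F4/80) was at 0 to 1.26 FPKM in C kidneys, 0.643 to 6.74 in M kidneys and 0.92 to 2.13 in AA kidneys, Cd68 at 2.21 to 3.84, 5 to 24.7 and 0 to 5.88, and Csf1r, the receptor for CSF1, at 6.92 to 15.9, 2.31 to 8.28 and 0.9 to 4.7. The C kidney with high C1q, mouse 4, also had the highest macrophage sum of its group (104.5 FPKM, against 21.3 to 34.3 in the other 4) and the highest Lyz2 (49.6 FPKM, against 2.63 to 7.12). In bulk tissue, more cells of a type and more RNA per cell cannot be told apart, and the part of the macrophage markers in the C1q values was not tested.

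The markers of other cells were counted in the same fits. Over all genes tested, 0.269% were called higher and 1.11% lower in M vs. C. These shares were 11.7% and 1.07% in AA vs. M, and 10.2% and 9.61% in AA vs. C. In M vs. C, proximal tubule markers were called lower in 7 of 10 and loop and distal tubule markers in 2 of 5, and fibroblast markers higher in 1 of 8, with 0 called of 6 injured tubule, 8 neutrophil, 9 T and B cell, 6 endothelial, 5 podocyte and 7 hepatocyte markers, of which 6, 4, 8, 6, 5 and 5 were tested (at an unadjusted p under 0.05 there were 4, 1, 0, 0, 0 and 3). In AA vs. M, 2 injured tubule, 2 T and B cell, 1 fibroblast and 1 podocyte markers were called, all higher, and 0 of the other lists apart from the macrophage marker above. In AA vs. C, 7 of 8 fibroblast and 3 of 6 injured tubule markers were called higher, and 8 of 10 proximal tubule and 3 of 5 loop and distal tubule markers lower. The calls of the other lists in AA vs. C were 2 higher and 1 lower of T and B cells, 1 and 1 of podocytes, and 1 lower each of neutrophils, endothelium and hepatocytes. Their part in the complement values was not tested.

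C3, the central protein, was at 0.769, 1.57, 1.15, 13.2 and 1.44 FPKM in C mice 1 to 5. It was at 2.01, 8.73, 4.75, 12.2 and 32.4 FPKM in M mice 1 to 5, a range that contained C mouse 4. In AA mice 1 to 5 it was at 7.45, 11.8, 6.87, 6.3 and 6.52 FPKM, the narrowest group. The means were 3.63 ± 5.37 (SD, n = 5), 12 ± 12 and 7.8 ± 2.3 FPKM, and the SD in M kidneys was as large as its mean.

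For C3, M vs. C gave a log2 fold change of 1.56 (SE 0.67, limma adjusted p = 0.269), which did not pass, and it was 2.71 against M mice 4 and 5 alone and 0.79 with M mice 1 to 3 alone. AA vs. M gave −0.13 (95% interval −1.25 to 0.98), −1.29 against M mice 4 and 5 alone (adjusted p = 0.0749) and 0.64 against M mice 1 to 3 alone, so its direction depended on which M kidneys were used. In AA vs. C, where 19.8% of all 21898 genes tested were called, 10.2% higher and 9.61% lower, 6 of the 9 complement genes were called, all higher. C3 was one of them, at 1.42 (SE 0.48, limma adjusted p = 0.0369). That call held only without AA mouse 5 or C mouse 4 among the 10 fits that left out 1 library, and was lost in the others (AA mice 1 to 4, C mice 1, 2, 3 and 5) with log2 fold changes of 1.21 to 1.48 and adjusted p from 0.0501 to 0.0817.

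The C1q genes were called in AA vs. C as well. In log2, the difference was 1.75 for C1qc (SE 0.43, limma adjusted p = 0.0086), 1.46 for C1qa (SE 0.46, limma adjusted p = 0.0279) and 1.36 for C1qb (SE 0.50, limma adjusted p = 0.0488). The AA and C ranges overlapped for each through C mouse 4, without which the values were 2.18, 1.93 and 1.90. The call of C1qc held in all 10 fits that left out 1 library. That of C1qa was lost without AA mouse 4 or C mouse 2, 3 or 5 (log2 fold changes 1.17 to 1.42, adjusted p 0.0566 to 0.0647). That of C1qb held only without AA mouse 2 or C mouse 4 and was lost without any 1 of the other 8 (log2 fold changes 1.15 to 1.38, adjusted p 0.0677 to 0.117).

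With TPM, 0 of the 6 calls in AA vs. C remained, with log2 fold changes of 0.62 for C1qa, 0.49 for C1qb, 1.25 for C1qc, 0.68 for C3, 0.75 for Cfi and 0.94 for C3ar1. TPM also moved the median of all genes in AA vs. C from 0.09 to −0.39, and all calls from 2241 higher and 2105 lower to 862 higher and 5923 lower. Relative to the median of all genes, C1qc was between 1.64 and 1.68, C1qa between 1.01 and 1.44, C1qb between 0.88 and 1.32 and C3 between 1.07 and 1.39 under the 5 scalings of FPKM. With voom, which kept the deposited scaling, C1qc was at 3.12 and C1qa at 1.88 relative to the median. Subtracting the median removes a shift common to all genes, so such ranges are no test of the scaling. All calls in M vs. C went from 57 higher and 234 lower to 31 and 1578 with TPM and to 132 and 207 with libraries centred on their median, and those in AA vs. M from 2321 and 212 to 1213 and 1600 with centring, which moved the median of all genes there from 0.17 to −0.35. In M vs. C the relative log2 fold change was 2.52 to 2.92 for C1qb and 2.54 to 2.64 for C1qc, and in AA vs. M it was −1.63 to −1.43 for C1qb.

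**Figure D3:**
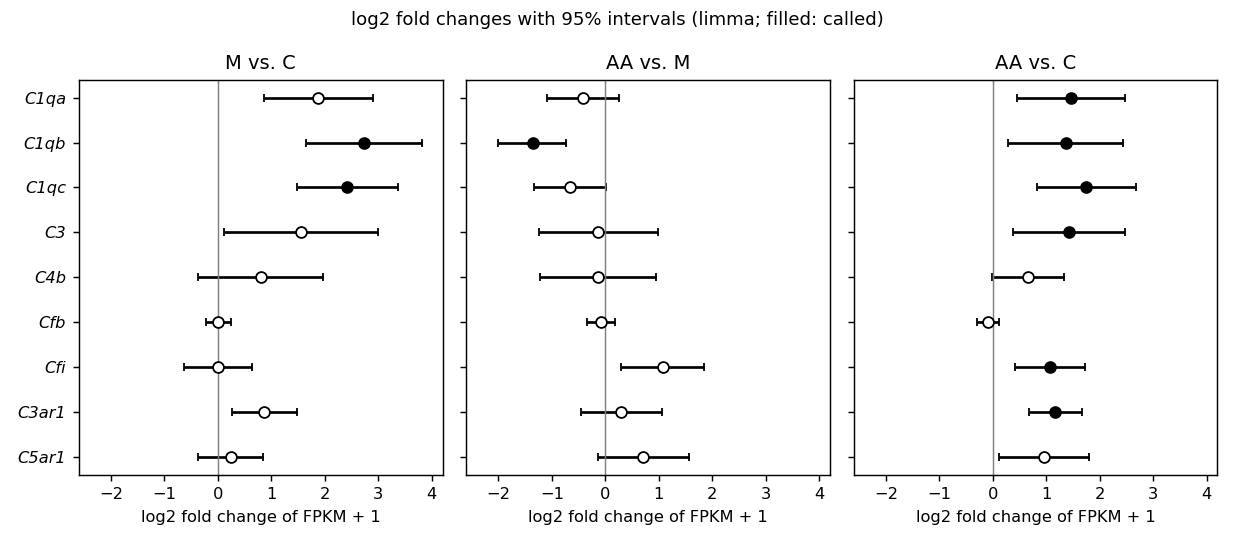
Log2 fold change of FPKM + 1 for the 9 complement genes in M vs. C, AA vs. M and, on the right, AA vs. C (points, with 95% intervals from limma, 5 mice per group, filled where called). C1qb and C1qc are filled in M vs. C, C1qb in AA vs. M, and C1qa, C1qb, C1qc, C3, Cfi and C3ar1 in AA vs. C.

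C4b, of the classical convertase, followed C3 in being high in M mice 4 and 5. Its FPKM was 0.705, 1.84, 0.597, 3.38 and 0.708 in the C mice, 3.4, 0, 2.24, 6.46 and 7.79 in the M mice and 1.44, 3.47, 2.12, 3.08 and 3.17 in the AA mice. The 3 groups overlapped, and M mouse 2 was listed at 0. On the log2 scale the difference was 0.80 in M vs. C (95% interval −0.37 to 1.97), −0.14 in AA vs. M (−1.22 to 0.94) and 0.66 in AA vs. C (−0.01 to 1.33), and none passed the test. Against M mice 4 and 5 alone and M mice 1 to 3 alone it was 1.85 and 0.11 in M vs. C, and −1.18 and 0.56 in AA vs. M. C4a, the near copy, was at most 1.6 FPKM in any kidney.

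Cfb, of the alternative convertase, was near 0 everywhere, at 0.00533 to 0.255 FPKM in C kidneys, 0 to 0.366 in M kidneys and 0 to 0.241 in AA kidneys. It was listed at 0 in M mice 2 and 3 and AA mice 1 to 3, and rested on 0 to 29 fragments per library. The 95% interval of the log2 fold change was −0.23 to 0.24 in M vs. C, −0.35 to 0.17 in AA vs. M and −0.29 to 0.12 in AA vs. C. At such counts no difference was detectable. Gm20547, which overlaps it, was listed at 0 in all 15 libraries.

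Cfi, the inactivating protease, was highest in AA kidneys. Its FPKM was 0.617, 0.0112, 0.393, 1.22 and 0.121 in the C mice, 1.48, 0, 0, 0.814 and 0.245 in the M mice and 2.02, 1.95, 0.57, 2.8 and 3.27 in the AA mice. On the deposited FPKM scale, AA mouse 3 was the 1 AA kidney inside the C and M ranges. AA vs. C gave a log2 fold change of 1.06 (SE 0.30, limma adjusted p = 0.0171), and it fell under 1 without AA mouse 4 or 5 or C mouse 2 or 5 (0.93 to 0.98, adjusted p 0.0351 to 0.0465). AA vs. M gave 1.07 (SE 0.36, limma adjusted p = 0.0537), which missed the threshold, and it passed without AA mouse 3 (1.30, adjusted p = 0.0226) or M mouse 1 (1.27, adjusted p = 0.0345). The 95% interval in M vs. C was −0.63 to 0.63. At these low levels the pseudocount holds fold changes down. On the recovered fragments, limma voom gave 3.05 in AA vs. C and 3.65 in AA vs. M (adjusted p = 0.0218 and 0.0443). Those values rest in part on libraries with 0 fragments (M mice 2 and 3) or 1 fragment (C mouse 2), so their size is uncertain.

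C3ar1, the C3a receptor, was at 0.441, 0.254, 0.108, 0.329 and 0.194 FPKM in the C mice, 0.56, 2.65, 2.4, 0.871 and 0.796 in the M mice and 2.83, 3.12, 1.58, 1.31 and 0.952 in the AA mice. On the deposited FPKM scale, every M and every AA kidney lay above every C kidney. The same held in M vs. C for 1.05% of all genes tested and in AA vs. C for 11.5%. The FPKM of all genes summed to 375481 in C mouse 1, 1171206 in M mouse 1 and 847003 in AA mouse 5, so this order depends on the scaling. Ranges without overlap in either direction were found in 4.72% of all genes in M vs. C and in 24% in AA vs. C. In AA vs. C the log2 fold change of C3ar1 was 1.17 (SE 0.23, limma adjusted p = 0.00307), called in all 10 fits that left out 1 library, and 2.91 with voom. With TPM it was 0.94 and was not called. M vs. C gave 0.87 (SE 0.28, limma adjusted p = 0.155), which did not pass, 0.54 against M mice 4 and 5 alone and 1.09 with M mice 1 to 3 alone (adjusted p = 0.0201). AA vs. M gave 0.30 (95% interval −0.45 to 1.05).

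C5ar1, the C5a receptor, spread widely within groups. Its FPKM was 1.15, 0.155, 0.24, 1.28 and 0.128 in the C mice, 0.503, 0.372, 0.802, 1.01 and 1.45 in the M mice and 4.26, 0.475, 1.71, 4.5 and 0.87 in the AA mice. All groups overlapped, with AA mice 1, 3 and 4 above every C and M kidney on the deposited FPKM scale. None of the differences passed, with log2 fold changes of 0.24 in M vs. C (95% interval −0.37 to 0.85), 0.71 in AA vs. M (−0.13 to 1.56) and 0.95 in AA vs. C (0.11 to 1.80, limma adjusted p = 0.0739). Without AA mouse 2, the last was 1.20 and passed (adjusted p = 0.0286).

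Over the 9 genes, the median log2 fold change was 0.87 for M against C, −0.13 for AA against M and 1.17 for AA against C, beside −0.12, 0.17 and 0.09 over all genes tested. The 3 comparisons share libraries and are not independent of each other. By median FPKM over the 15 kidneys, C1qb (14.1) came first, then C1qa (12.1), C1qc (7.46), C3 (6.52), C4b (2.24), C3ar1 (0.871), C5ar1 (0.87), Cfi (0.617) and Cfb (0.176). In the M group the order began with C1qb (34.7), C1qa (17.1) and C1qc (11), whose ranges overlapped between C1qa and C1qc but not between C1qb and C1qa.

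Of 45 other complement genes, 34 could be tested in M vs. C, 32 in AA vs. M and 35 when AA was compared with C. In M vs. C, 1 was called higher and 1 lower, beside 0.269% and 1.11% of all genes tested. Itgb2, the shared chain of the complement receptors CR3 and CR4, was at 0.133 to 1.56 FPKM in C kidneys, 2.13 to 6.68 in M kidneys and 0.722 to 2.25 in AA kidneys, and its log2 fold change in M vs. C was 1.67 (SE 0.36, limma adjusted p = 0.0415). C8a, a chain of the membrane attack complex, was at 2.19 to 7.56, 0 to 0.797 and 0.0606 to 1.11 FPKM, and its log2 fold change in M vs. C was −1.81 (SE 0.35, limma adjusted p = 0.0284). On the deposited FPKM scale, the M and C ranges overlapped for neither, and the M range was the lower one in 3.67% of all genes tested. For Itgb2 (2.49 FPKM in M mouse 1 and 1.56 in C mouse 4) this depends on the scaling. Both calls were lost without C mouse 2 or 5 or M mouse 1, 2 or 3, and that of Itgb2 also without C mouse 1 or 3 (log2 fold changes 1.49 to 1.78 for Itgb2, adjusted p 0.0692 to 0.127, and −1.85 to −1.58 for C8a, adjusted p 0.0554 to 0.0921). Against M mice 4 and 5 alone they were 1.75 (adjusted p = 0.139) and −1.53 (adjusted p = 0.193), and with TPM Itgb2 was not called (1.44, adjusted p = 0.0943).

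In AA vs. M, 2 of the 32 were called, both higher, where 11.7% of all genes tested were called higher. Cfd, factor D, the protease that cleaves factor B and is made by fat cells, was at 2.87, 0.842, 1.23, 23.1 and 2.42 FPKM in the AA mice and 0, 0, 0, 0 and 0.486 in the M mice, so that AA vs. M gave a log2 fold change of 1.96 (SE 0.56, limma adjusted p = 0.0276). In the C mice it was at 3, 0.378, 10.6, 71.4 and 0.519 FPKM, highest in mouse 4. C5ar2, the other C5a receptor, was at 0.68 to 4.08 FPKM in AA kidneys, 0 to 1.19 in M kidneys and 0.021 to 0.909 in C kidneys, and AA vs. M gave 1.14 (SE 0.35, limma adjusted p = 0.0369). The call of Cfd was lost without M mouse 1, 2 or 3 (log2 fold change 1.93 in each, adjusted p 0.0577 to 0.0604). That of C5ar2 was lost without AA mouse 1, 2, 3 or 4 or M mouse 1, 2 or 3 (0.94 to 1.16, adjusted p 0.0508 to 0.0897). Against M mice 4 and 5 alone they were 1.79 (adjusted p = 0.196) and 0.57 (adjusted p = 0.388). With TPM neither was called (2.11, adjusted p = 0.102, and 1.07, adjusted p = 0.223), and with libraries centred on their median neither was called while 3 other complement genes were called lower.

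In AA vs. C, 6 of the 35 were called higher and 4 lower, beside 10.2% and 9.61% of all genes tested. With TPM 2 were higher and 9 lower. Of the proteases that C1q carries, C1s1 was at 50.2 to 77.6 FPKM in AA kidneys, 18.7 to 68.8 in M kidneys and 9.2 to 29.3 in C kidneys (log2 fold change 1.58 in AA vs. C, adjusted p = 0.0026), and C1ra at 27 to 56.7, 10.1 to 50.9 and 6.62 to 21.4 (1.30, adjusted p = 0.00809). Both share many words with near copies, 47.6% for C1s1 and 59.6% for C1ra. Serping1, encoding the C1 inhibitor, was at 253 to 392 FPKM in AA kidneys, 66.6 to 432 in M kidneys and 52.5 to 105 in C kidneys, and its log2 fold change was 1.90 (adjusted p = 0.000438). With TPM the log2 fold changes were 0.51 for C1s1, 0.25 for C1ra and 0.80 for Serping1, and none of these was called.

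Of the terminal pathway, C7 was at 47.3 to 76.1 FPKM in AA kidneys, 0 to 74.2 in M kidneys and 6.83 to 17.2 in C kidneys, giving 2.19 in AA vs. C (SE 0.26, limma adjusted p = 0.000254). C6 was also higher (1.66, adjusted p = 0.000981), while C8a (−1.67, adjusted p = 0.00262) and C8g (−1.57, adjusted p = 0.0073) were lower. Cfp, properdin, which stabilizes the alternative convertase, was at 0 to 1.34 FPKM in AA kidneys, 0 to 20.7 in M kidneys and 3.99 to 8.81 in C kidneys (−2.13 in AA vs. C, adjusted p = 0.000315). Cd59a, which blocks the membrane attack complex on cells, was at 6.41 to 9.74, 3.24 to 15.2 and 13.8 to 25.1 FPKM (−1.16, adjusted p = 0.00273). C5ar2 was higher in AA vs. C too (1.16, adjusted p = 0.00869), a call lost without AA mouse 1 (0.96) and with TPM (0.97, adjusted p = 0.0645). All adjusted p in AA vs. C are from limma over 21898 genes, and the other 9 calls held in all 10 fits that left out 1 library.

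**Figure D4:**
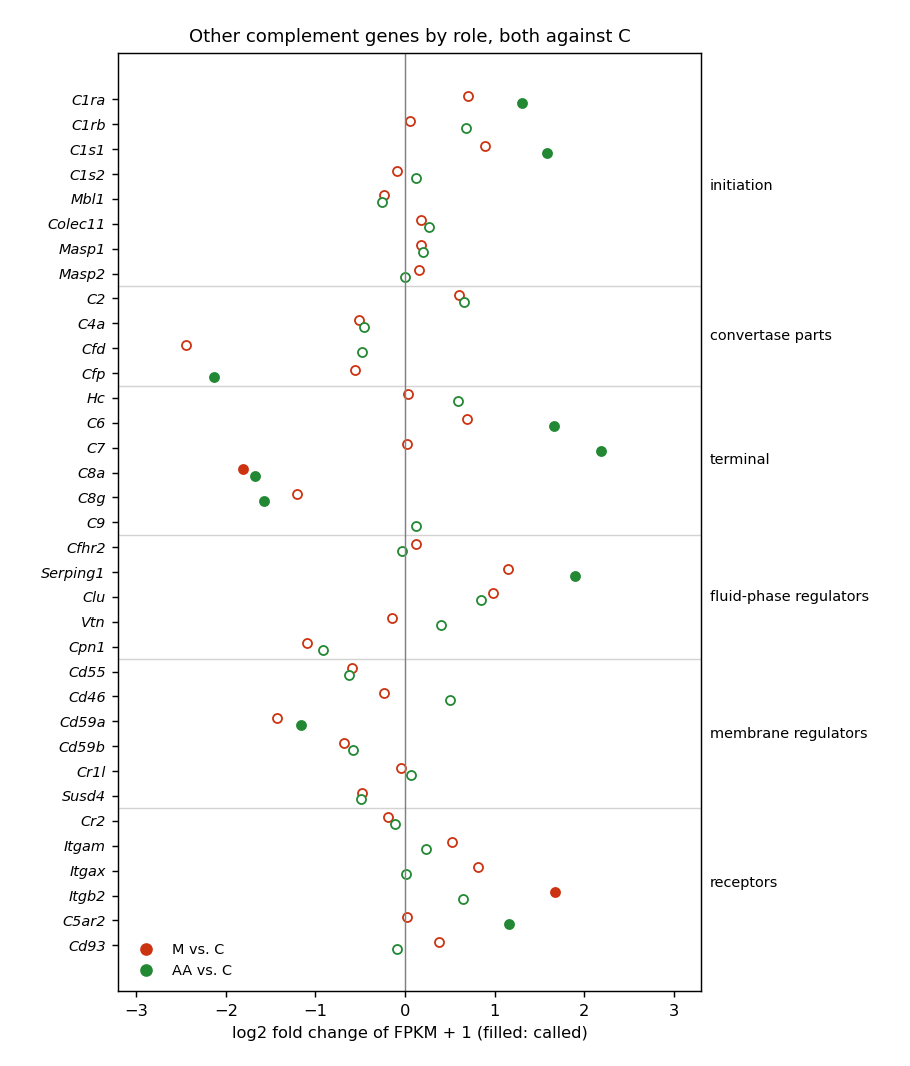
Log2 fold change of FPKM + 1 of the other complement genes tested in M vs. C (red) and AA vs. C (green), ordered by role, filled where called. In M vs. C only Itgb2 and C8a are filled, and in AA vs. C 10 genes are, 6 of them to the right of 0.

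The genes whose levels over the 15 kidneys were most like the mean of the C1q genes were H2-Aa and H2-Eb1, chains of MHC class II, and Mpeg1, a pore protein of macrophages. Their root mean square difference of standardized log2 levels was 0.329, 0.332 and 0.361, where the median of 16356 protein-coding genes was 1.45. The median FPKM of H2-Aa was 9.62 in C kidneys, 46.7 in M kidneys and 27.3 in AA kidneys. For C3 the nearest genes were Casp4 (0.487), Klf6 (0.568) and Spi1 (0.572), beside a median of 1.4. Spi1 encodes PU.1, and its median was 0.599, 3.41 and 2.29 FPKM in the C, M and AA groups.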

How the data were processed

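Poly-A RNA of 15 mouse kidneys, 1 per mouse and 5 per group by their labels, was read on an Illumina NovaSeq. The authors trimmed reads with fastp, aligned them with HISAT2 2.0.5, counted them on genes with featureCounts 1.5.0-p3 (genome mm10, by the submitters' processing notes) and deposited values in FPKM. The annotation release is not given in the sources used here. The authors' DESeq2 analysis of counts was not repeated, because the FPKM table was the file used.

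Of 54532 Ensembl identifiers, 54495 were found in GENCODE M21 (GRCm38). Fragments were recovered from the smallest FPKM steps and the exon lengths: 97.8 to 99% of low values per library (up to 20 fragments) fell within 0.05 of a whole multiple. These numbers may be off by a factor of 2, and no counting interval was computed. The library total that the steps imply was 0.518 to 2.3 times the summed fragments, so the libraries were not scaled on 1 common base. The ratio was 1.41 to 2.3 for C, 0.647 to 1.57 for M and 0.518 to 1.48 for AA libraries. The base thus differed between groups, and a larger total lowers FPKM. Strand was not stated.

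The comparisons of M with C, AA with M and AA with C were each fitted with limma 3.58.1 in R 4.3.3 on log2(FPKM + 1), with an intensity trend, in the 10 libraries compared, for genes above 0 in at least 5 of them. The pseudocount of 1 understates fold changes of low genes. Every adjusted p is limma's, by Benjamini-Hochberg over all genes tested. The fit was tested on simulated data, drawn independently for each gene and library. They held no differences in library scaling and no libraries like M mice 1 to 3, so they do not bear on those limits. The labels do not say whether equal mouse numbers share a cage or day, so no replicate block was used. The 9 genes, the 45 other complement genes, the cell marker lists and the tests were chosen with earlier results of these data known. From these lists 1 complement gene and 1 macrophage marker are not reported here and were left out of every count. Named were the 9 genes, the other complement genes called in any comparison or highest in their role, and the 3 genes nearest in pattern to the C1q genes and to C3. Promoters are from RefSeq (GRCm38.p6). Motifs were searched on both strands of the 250 bases before the start. Words shared with other genes were counted over 31 bases. Alternatives were other scalings, filters, pseudocounts, models and sets of libraries. Voom took as library size the total implied by the FPKM steps, so it kept the deposited scaling and is no check of it. Python 3.11.15 with numpy 2.4.6, pandas 2.3.3 and matplotlib 3.10.9 was used.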

Additional observations from a re-analysis of the deposited data

Results flagged for a closer look

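C mouse 4 stood apart from the other 4 C kidneys in 4 of the 9 complement genes, with 15.77 FPKM of C1qa, 21.23 of C1qb, 6.456 of C1qc and 13.21 of C3. Its gap to the nearest C kidney was 0.859, 0.902, 0.854 and 0.936 of the range of the group, above Dixon's critical value of 0.71 for 5 values. AA mouse 2 stood apart in C3, with 11.84 FPKM and a gap of 0.792 of the range. These 5 were found among 27 groups of values (9 genes in 3 groups), where chance alone flags about 1 in 20 if values are normally distributed. The gaps were taken on FPKM and not on the log2 scale of the fits, so the rate may be higher here. The genes share a kidney, so the flags of C mouse 4 are not independent of each other.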

How the results depend on the processing

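Of the 9 complement genes, 2 were called in M vs. C. There were 0 with genes above 0 in any library and with M mice 4 and 5 alone, 4 with M mice 1 to 3 alone and 0 to 3 when 1 library was left out. The 1 call in AA vs. M became 0 with TPM and with M mice 4 and 5 alone, 2 with all 15 libraries in 1 fit, 2 with voom on recovered fragments and 1 to 2 when 1 library was left out. The 6 calls in AA vs. C became 0 with TPM, 3 with genes above 0 in any library, 3 with centred libraries and 2 to 6 when 1 library was left out. Of the other complement genes, the 2 calls in M vs. C became 0 with genes above 0 in any library or M mice 4 and 5 alone, 5 with M mice 1 to 3 alone and 0 to 3 when 1 library was left out. The 2 calls in AA vs. M became 0 with TPM or genes above 0 in any library, 4 with all 15 libraries or M mice 1 to 3 alone, 1 with M mice 4 and 5 alone or without mitochondrial genes and 0 to 4 when 1 library was left out. The cause was not tested.

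Equal mouse numbers showed no consistent pairing: the correlation of their deviations was −0.07 to 0.22 in M vs. C, −0.08 to 0.05 in AA vs. M and −0.13 to 0.18 in AA vs. C. The equal number was the best match for 2 numbers in M vs. C, 0 in AA vs. M and 1 in AA vs. C. These correlations do not settle whether numbers mark a shared cage or day. With the replicate block, 1 of the 9 genes was called in M vs. C (C1qb, with adjusted p = 0.048, while C1qc was at 0.0548), and of the other complement genes 0 in M vs. C; for AA vs. M the block gave 1.

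Small differences changed sign. In M vs. C, Cfb (0.00) was −0.13 with TPM, −0.06 with M mice 1 to 3 alone, −0.12 with a pseudocount of 0.1, −0.37 with voom and −0.06 to 0.05 when 1 library was left out. Cfi was 0.36 with centring, 0.09 with M mice 4 and 5 alone, 0.14 with quantile normalization and −0.21 to 0.16 when 1 library was left out, and C5ar1 was −0.06 with TPM. In AA vs. M, C3 was 0.64 with M mice 1 to 3 alone and −0.54 to 0.32 when 1 library was left out, C4b was 0.56 with M mice 1 to 3 alone, 0.32 with a pseudocount of 0.1 and −0.63 to 0.15 when 1 library was left out, and C3ar1 was −0.22 with centring and −0.02 with quantile normalization. Of the recomputed log2 fold changes of the 9 genes, 492 kept their direction and side of the threshold, 25 changed direction, 58 lost a call and 15 gained one. Outside the mitochondrial genome the M and AA libraries held fewer fragments than the C libraries at the median, so a difference in genes at low FPKM may go undetected.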
